A study of Homo sapiens with 17 samples.

Results

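The genes described here encode the 5 human receptors that bind TRAIL: the death receptors TNFRSF10A (DR4) and TNFRSF10B (DR5), the decoy receptors TNFRSF10C (DcR1) and TNFRSF10D (DcR2), and the secreted receptor TNFRSF11B (osteoprotegerin). They were taken by gene symbol, a rule that uses no measured value, though the set was chosen with earlier results of these data known. They are 5 of 58870 entries in the deposited gene table. Of those entries 15365 had enough counts to be tested, and all 5 receptor genes were among them. RNA sequencing of poly(A) RNA was done on MDA-MB-231, an established triple-negative human breast cancer line that the labels class as Mesenchymal Basal B. The cells were given 45 nM TRAIL, which the submitters call a suboptimal dose, and RNA was taken at 0, 1, 3, 6, 12 and 24 h. There were 17 libraries, 3 at each time except 1 h, which had 2.

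Every library carries the same label for treatment with TRAIL, those at 0 h included, and no later time has an untreated match. The effect of TRAIL and that of the hours in culture, or of handling, therefore cannot be told apart, and every comparison with 0 h uses the same 3 libraries at 0 h. All libraries come from 1 cell line. The labels do not say whether the libraries of a time came from separate cultures, so the p-values measure only the spread between these libraries, which may be technical.

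TRAIL is a ligand of the TNF family that kills many transformed cells while sparing most normal ones. TNFRSF10A and TNFRSF10B carry an intracellular death domain, which recruits the adaptor FADD and caspase-8 once the ligand has clustered the receptor. TNFRSF10C is held in the membrane by a lipid anchor and has no death domain, TNFRSF10D has a truncated one, and TNFRSF11B is a soluble protein best known for blocking the bone-resorption ligand RANKL, so these 3 can hold the ligand without starting that caspase route.

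All 5 genes lie on chromosome 8 (positions in GRCh38 from the GENCODE 29 annotation). TNFRSF10B (ENSG00000120889) spans 23020133 to 23069179 on the minus strand, and TNFRSF10C (ENSG00000173535) spans 23102590 to 23117437 on the plus strand. TNFRSF10D (ENSG00000173530) lies at 23135588 to 23164030 and TNFRSF10A (ENSG00000104689) at 23190452 to 23225126, both on the minus strand. These 4 paralogs form a cluster of 205 kb with gaps of 33.4, 18.1 and 26.4 kb between neighbours. TNFRSF11B (ENSG00000164761) stands apart from them by 95.7 Mb, at 118923557 to 118952200 on the minus strand. All 5 are annotated as protein-coding.

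Total counts per library ran from 13731520 to 19234924, and the levels below are CPM, a gene's counts relative to the total of its library after scaling with edgeR's TMM factors, which lay between 0.939 and 1.06. Of 7 marker genes that should be high in a mesenchymal basal line, 6 were (VIM, for example, 2490 to 3720 CPM), whereas SPARC reached only 0.216 to 1.07 CPM. Of 9 genes listed as absent or low, ESR1, PGR, KRT5 and KRT14 stayed at or below 0.249 CPM and CDH1 at or below 1.01 CPM. EPCAM (13.1 to 19.3 CPM) and ERBB2 (56.4 to 70.9 CPM) were clearly detected, and the luminal keratins KRT8 (804 to 1140 CPM) and KRT18 (522 to 931 CPM) were abundant. Library properties differed between times. The percent of counts from mitochondrial genes was 5.53 to 8.37 at 0 h and 7.99 to 8.97 at 3 h. It was 3.97 to 5.45 at 6 h, 5.01 to 6.8 at 12 h and 3.66 to 4.14 at 24 h. A slope was taken as the change in a gene's log2 level, relative to its mean over the libraries, per doubling of its longest transcript. This slope was -0.08 to -0.02 at 0 h and -0.15 to -0.07 at 3 h. It was 0.02 to 0.12 at 6 h, -0.02 to 0.08 at 12 h and 0.02 to 0.15 at 24 h. With offsets for length and GC content in the fit, no call of the 5 receptor genes at 3, 6 or 24 h against 0 h was lost. Other genes were counted in that fit but not looked up by name. Replicates 2 and 3 at 6 h and at 24 h were closer to each other than any other pair of the same time, though still apart by more than sampling noise. Averaging each of those pairs into 1 library left the number of receptor genes called at each time as it was.

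The membrane receptors TNFRSF10A, TNFRSF10B and TNFRSF10D rose, and the secreted receptor TNFRSF11B fell. The death receptors were higher than at 0 h at 3, 6 and 24 h, by 1.15- to 1.45-fold, and stood lower at 12 h than at 6 h. TNFRSF10D was higher at 6 h (1.25-fold) and at 24 h (1.56-fold). TNFRSF11B was 0.673-fold of its 0 h level at 24 h. TNFRSF10C had so few counts that its change rests on a few fragments. In a fit over all times, TNFRSF10A, TNFRSF10B, TNFRSF10D and TNFRSF11B each passed the test (edgeR's quasi-likelihood F-test, Benjamini-Hochberg adjusted p below 0.05 over all genes tested), as did 64.2% of all genes tested. In RNA from bulk cells, more transcript in each cell and a larger share of cells that carry it cannot be told apart.

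**Figure D1:**
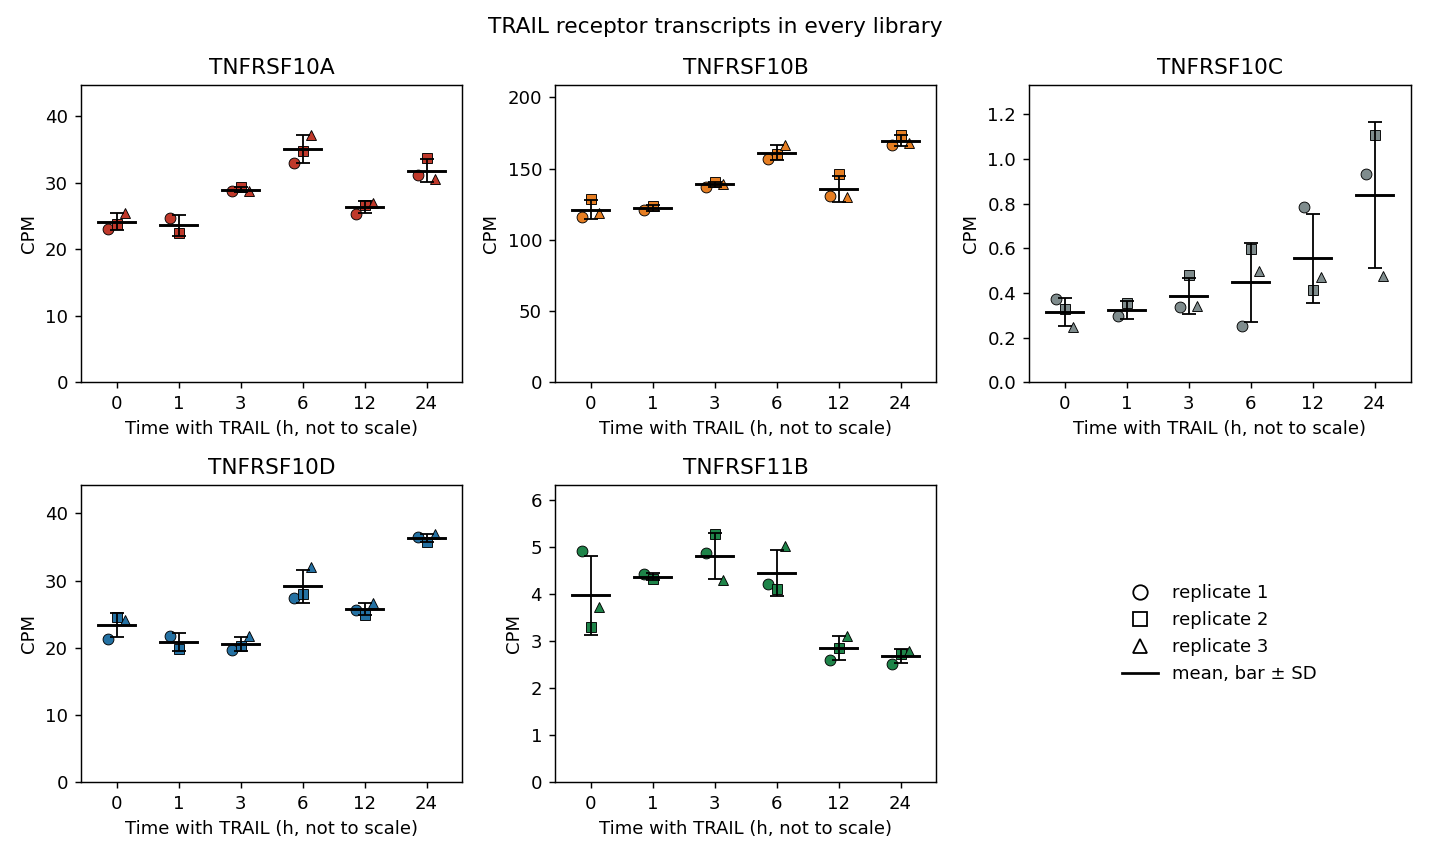
Level of each receptor gene (CPM, linear axis from 0) in all 17 libraries against time with TRAIL (h, not to scale), with marker shapes for replicate numbers and bars for the mean ± SD. TNFRSF10B lies between 116 and 174 CPM and TNFRSF10C below 1.2 CPM; TNFRSF10A, TNFRSF10B and TNFRSF10D stand above their 0 h libraries at 6 h and 24 h, and TNFRSF11B below them at 24 h.

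TNFRSF10A, the death receptor DR4, was at 23.1, 23.8 and 25.5 CPM in the 3 libraries at 0 h and at 24.7 and 22.5 CPM at 1 h. It reached 28.7, 29.3 and 28.8 CPM at 3 h and 33.0, 34.8 and 37.2 CPM at 6 h. The libraries at 3 h and 6 h all lay above those at 0 h, and those at 1 h lay within or next to their range. At 12 h the values were 25.3, 26.6 and 27.0 CPM, and at 24 h they were 31.1, 33.7 and 30.6 CPM. The 12 h libraries overlapped the 0 h ones, and the 24 h libraries did not. The log2 fold change against 0 h was 0.26 (SE 0.0733, adjusted p = 0.0187) at 3 h, 0.54 (SE 0.0714, adjusted p = 2.96e-05) at 6 h and 0.40 (SE 0.0718, adjusted p = 4.32e-04) at 24 h. It was -0.03 (adjusted p = 0.991) at 1 h and 0.13 (adjusted p = 0.27) at 12 h. The rise at 3 h missed the threshold without replicate 1 at 0 h (0.24, adjusted p = 0.0536), without replicate 2 at 0 h (0.25, adjusted p = 0.0612) and without replicate 2 at 3 h (0.25, adjusted p = 0.0584).

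TNFRSF10B, the death receptor DR5 and the most abundant of the 5, was at 116, 129 and 119 CPM at 0 h and at 121 and 124 CPM at 1 h. Its libraries at 3 h were at 137, 141 and 139 CPM and those at 6 h at 157, 160 and 167 CPM. Both sets lay above every 0 h library, and the 1 h libraries lay inside the 0 h range. At 12 h the levels were 131, 146 and 130 CPM, and at 24 h they were 167, 174 and 168 CPM. The 12 h libraries were still above the highest 0 h library by a small margin, and the 24 h libraries were well above it. The log2 fold change against 0 h was 0.20 (SE 0.0573, adjusted p = 0.0203) at 3 h, 0.41 (SE 0.0569, adjusted p = 4.33e-05) at 6 h and 0.49 (SE 0.0569, adjusted p = 6.66e-06) at 24 h. It was 0.02 (adjusted p = 0.991) at 1 h and 0.16 (adjusted p = 0.0632) at 12 h. The 3 h result missed the threshold without replicate 1 at 0 h (0.17, adjusted p = 0.0648), replicate 3 at 0 h (0.19, adjusted p = 0.0764) or replicate 2 at 3 h (0.19, adjusted p = 0.0599). The 12 h result passed it without replicate 2 at 0 h (0.21, adjusted p = 0.0443).

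TNFRSF10D, the decoy receptor with a truncated death domain, was at 21.3, 24.6 and 24.1 CPM at 0 h and at 21.8 and 19.9 CPM at 1 h. At 3 h, when both death receptors were already higher, it was at 19.7, 20.3 and 21.7 CPM. Of those 3 h values 2 sat under the 0 h range and the highest inside it, with a log2 fold change of -0.18 (SE 0.0826, adjusted p = 0.132). At 6 h it was at 27.4, 28.0 and 32.0 CPM, at 12 h at 25.6, 24.9 and 26.7 CPM, and at 24 h at 36.5, 35.7 and 36.9 CPM. The libraries of these 3 times all lay above the 0 h ones, narrowly at 12 h and widely at 24 h. Its log2 fold change was 0.32 (SE 0.079, adjusted p = 0.00535) at 6 h, 0.14 (adjusted p = 0.26) at 12 h and 0.64 (SE 0.0778, adjusted p = 1.14e-05) at 24 h. The 6 h result missed the threshold without replicate 3 at 6 h (0.24, adjusted p = 0.0509).

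TNFRSF10C, the lipid-anchored decoy receptor, was close to the limit of what this depth can count. Its expected counts at 0 h were 6, 5.3 and 4 fragments, and those at 24 h were 15.91, 17.97 and 7.14. In CPM that was 0.373, 0.33 and 0.249 at 0 h and 0.932, 1.11 and 0.476 at 24 h, so the ranges did not overlap but the third 24 h library lay near the 0 h ones. The mean at 1 h was 0.326 ± 0.0399 CPM (SD, n = 2), and the means of 3 libraries each at 3, 6 and 12 h were 0.388 ± 0.0819, 0.449 ± 0.177 and 0.557 ± 0.199 CPM. Only the 24 h comparison passed the test, with a log2 fold change of 1.42 (SE 0.425, adjusted p = 0.0129), and it missed the threshold without replicate 2 at 24 h (1.17, adjusted p = 0.0738). The filter asks for a level worth 10 counts at the median depth in as many libraries as the smallest group holds, here 2. TNFRSF10C had 3 libraries with a rounded count of at least 10, and the 2 of them at 24 h were enough to let it in. The filter itself thus favoured this direction, and the call is given as a description.

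TNFRSF11B, the secreted receptor, was at 4.92, 3.3 and 3.73 CPM at 0 h, at 4.43 and 4.33 CPM at 1 h and at 4.89, 5.28 and 4.3 CPM at 3 h. At 6 h it was at 4.23, 4.11 and 5.02 CPM. The early groups overlapped one another, with replicate 1 at 0 h well above the other two. At 12 h the levels were 2.61, 2.86 and 3.11 CPM and at 24 h they were 2.52, 2.73 and 2.8 CPM, all below the lowest 0 h library. The log2 fold change was -0.47 (SE 0.162, adjusted p = 0.0608) at 12 h and -0.57 (SE 0.166, adjusted p = 0.0117) at 24 h. Both values depended on single 0 h libraries: the 12 h result passed the threshold without replicate 2 at 0 h (-0.59, adjusted p = 0.0429), and the 24 h result missed it without replicate 1 at 0 h (-0.39, adjusted p = 0.104). At 1, 3 and 6 h the values were 0.14, 0.27 and 0.17, and none passed the test.

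**Figure D2:**
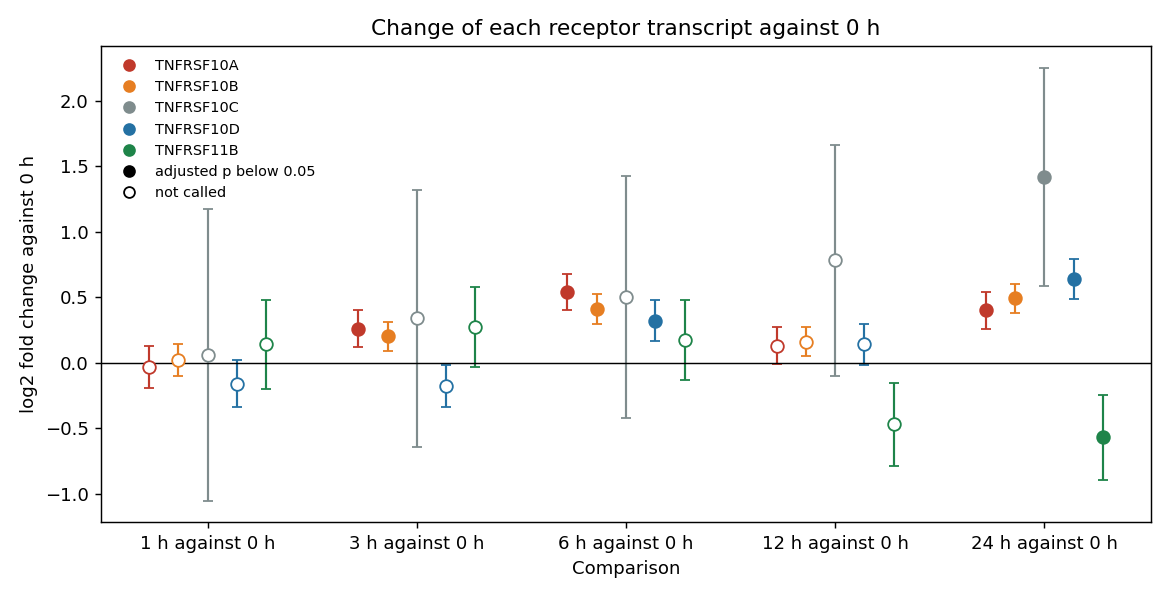
Log2 fold change of each receptor gene against 0 h (vertical axis) at 1, 3, 6, 12 and 24 h, with bars for the 95% interval (1.96 SE from the edgeR fit), filled points for adjusted p below 0.05 and open points for the rest. TNFRSF10A and TNFRSF10B are higher at 3, 6 and 24 h and nearer 0 at 12 h, TNFRSF10D is below 0 at 3 h and highest at 24 h (0.64), and TNFRSF11B is below 0 at 12 h and 24 h.

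Counted by time, none of the 5 genes was called at 1 h, when 0.312% of all genes tested were, and none had ranges apart from 0 h, against 19.1% of all genes. At 3 h 2 receptor genes were called, both higher, where 9.04% of all genes were called higher and 8.71% lower. Those same 2 had ranges apart from 0 h, against 33.9% of all genes. At 6 h 3 were called, all higher, against 16.9% of all genes higher and 13.2% lower; the ranges of those 3 were apart, against 44.2%. At 12 h none was called (12.4% of all genes were). With TNFRSF10C set aside, ranges lay above 0 h for TNFRSF10B and TNFRSF10D, below it for TNFRSF11B and overlapped for TNFRSF10A. Ranges were apart for 32.6% of all genes at that time. At 24 h, setting TNFRSF10C aside, 3 of 4 were called higher and 1 of 4 lower, where 18.0% of all genes were called higher and 17.1% lower, and ranges were apart for all 4, against 45.8% of all genes.

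Tests between consecutive times located the turns. From 1 h to 3 h TNFRSF10A was called (log2 fold change 0.29, adjusted p = 0.0416), when 3.17% of all genes were called higher, and leaving out any 1 library at 1 h or 3 h ended that call (0.23 to 0.36, adjusted p from 0.0543 to 0.237), as did leaving out replicate 2 at 6 h (adjusted p = 0.0558) or replicate 3 at 24 h (adjusted p = 0.0519). It was also lost with library-size scaling (0.27, adjusted p = 0.0878), without a filter (0.27, adjusted p = 0.155) and in a fit of the 2 times alone (0.29, adjusted p = 0.156). TNFRSF10B was at 0.18 in that step (adjusted p = 0.106) and passed with length and GC offsets (0.18, adjusted p = 0.0276). From 3 h to 6 h TNFRSF10A (0.28, adjusted p = 0.00416), TNFRSF10B (0.21, adjusted p = 0.00565) and TNFRSF10D (0.50, adjusted p = 1.36e-04) rose, in a step in which 22.9% of all genes were called higher. From 6 h to 12 h TNFRSF10A fell by 0.41 (adjusted p = 4.37e-04), TNFRSF10B by 0.25 (adjusted p = 0.00441) and TNFRSF11B by 0.64 (adjusted p = 0.00793), when 11.9% of all genes were called lower. TNFRSF10D stood at -0.18 in that step (adjusted p = 0.108) and passed with length and GC offsets (-0.19, adjusted p = 0.0486), and the fall of TNFRSF11B missed the threshold without replicate 3 at 6 h (-0.54, adjusted p = 0.0575). From 12 h to 24 h TNFRSF10A (0.27, adjusted p = 0.0184), TNFRSF10B (0.32, adjusted p = 0.00152) and TNFRSF10D (0.50, adjusted p = 5.89e-04) rose again, when 6.42% of all genes were called higher. The TNFRSF10A value in that last step missed the threshold without replicate 1 at 12 h (0.25, adjusted p = 0.0835) or replicate 2 at 24 h (0.23, adjusted p = 0.107), and with the close pairs averaged (0.27, adjusted p = 0.0727).

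Across the 17 libraries, TNFRSF10A and TNFRSF10B had log2 levels that moved together (Pearson r = 0.89, n = 17), as a description of libraries that share their time points. TNFRSF10B and TNFRSF10D were at r = 0.79 and TNFRSF10A and TNFRSF10D at 0.64. TNFRSF11B ran the other way against TNFRSF10D (r = -0.64), less so against TNFRSF10B (r = -0.32) and not against TNFRSF10A (r = -0.00).

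Levels of different genes were compared per kilobase of annotated exon. At 0 h TNFRSF10B was at 23.5 ± 1.31 CPM per kb (SD, n = 3), TNFRSF10A at 8.18 ± 0.408, TNFRSF10D at 6.6 ± 0.499, TNFRSF11B at 1.41 ± 0.295 and TNFRSF10C at 0.17 ± 0.0338. At 24 h the values were 33.0 ± 0.754, 10.8 ± 0.571, 10.3 ± 0.172, 0.949 ± 0.0522 and 0.45 ± 0.176 CPM per kb in the same order. That order held at all 6 times. Neighbours in it had ranges that did not overlap, with 1 exception: at 24 h TNFRSF10A and TNFRSF10D differed by a factor of only 1.05, and their libraries overlapped. Scaled by the longest transcript in place of all annotated exons, that factor was 1.14 and the ranges did not overlap.

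**Figure D3:**
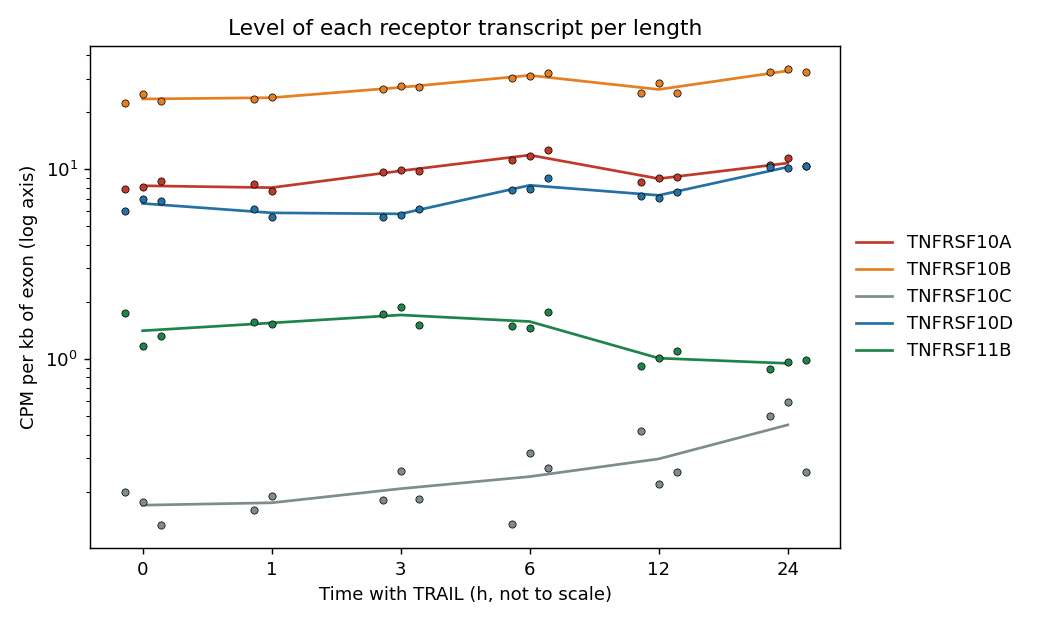
Level per kilobase of exon (CPM per kb, log axis) of the 5 receptor genes against time with TRAIL (h, not to scale), with points for libraries and lines through the mean of each time. TNFRSF10B is highest and TNFRSF10C lowest at every time, and TNFRSF10A and TNFRSF10D meet at 24 h, at 10.8 and 10.3 CPM per kb.

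The balance of decoy to death receptors was taken within each library, where scaling cancels. The slope with transcript length, which differed between times, does not cancel in any of the ratios below. Its part in them was not tested. The ratio is the summed per-kilobase level of TNFRSF10C and TNFRSF10D over that of TNFRSF10A and TNFRSF10B. On the log2 scale it was -2.28, -2.21 and -2.19 in the 0 h libraries. Those at 3 h gave -2.66, -2.64 and -2.54, and those at 24 h gave -1.99, -2.08 and -2.01. The 3 h libraries all lay below the 0 h ones and the 24 h libraries all above, which in linear terms is a ratio of 0.214 at 0 h, 0.164 at 3 h and 0.245 at 24 h. Each of those differences had an exact two-sided permutation p of 0.1, the smallest that 3 libraries against 3 can give. Set against the 9 libraries at 6, 12 and 24 h together, the 0 h ratio differed by 0.028 (exact permutation p = 0.773, adjusted over 5 ratios p = 0.982), with 5 of the 9 above and 3 below all 0 h libraries. The differences from 0 h at those 3 times were -0.12, 0.01 and 0.20. A test of the pooled libraries therefore cannot decide whether the ratio changed at any 1 of them.

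TNFRSF10D over TNFRSF10A followed the same course. On the log2 scale it was -0.38, -0.22 and -0.34 in the 0 h libraries, -0.80, -0.80 and -0.67 in those at 3 h, and -0.03, -0.18 and 0.01 in those at 24 h. The decoy gene thus stood lower relative to TNFRSF10A at 3 h and higher at 24 h than at 0 h in all 3 libraries of each time. The differences from 0 h were -0.44 and 0.24, each with an exact permutation p of 0.1. TNFRSF10D over TNFRSF10B differed from 0 h by -0.38 at 3 h and by 0.15 at 24 h, again with no overlap and an exact permutation p of 0.1 each. Between the 2 death receptors the ratio stayed within -0.09 to 0.12 of its 0 h mean at every time (exact permutation p from 0.2 to 0.7).

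TNFRSF11B over TNFRSF10B was -3.69, -4.42 and -4.12 in the 0 h libraries, -4.78, -4.81 and -4.52 in those at 12 h, and -5.19, -5.13 and -5.04 in those at 24 h. All libraries at 12 h and 24 h lay below all those at 0 h, and the linear ratio went from 0.0593 at 0 h to 0.0288 at 24 h. Against the 9 libraries at 6 to 24 h the difference was -0.64 (exact permutation p = 0.0364, adjusted over 5 ratios p = 0.182), with 6 of the 9 below every 0 h library, so it did not pass the correction. The differences at 6, 12 and 24 h were -0.24, -0.63 and -1.04, so the pooled value is an average over unlike times.

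**Figure D4:**
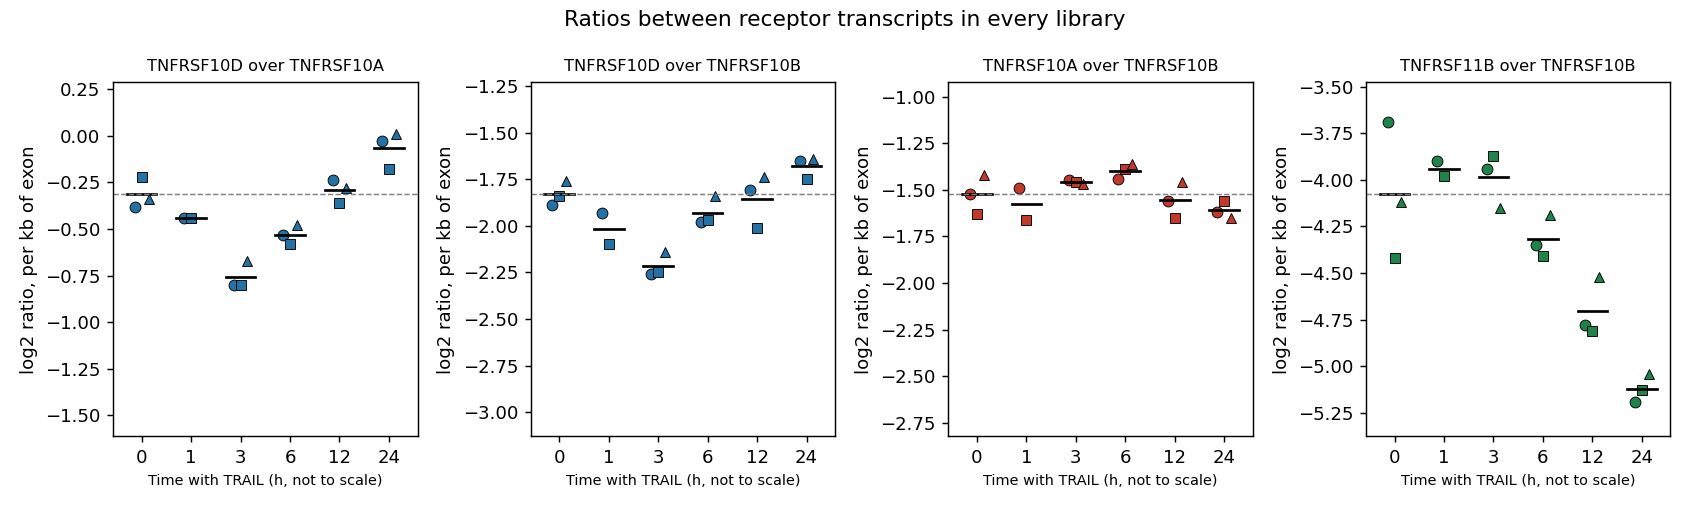
Log2 ratios of per-kilobase levels in each of the 17 libraries against time with TRAIL (h, not to scale), 1 panel for each pair of genes, with bars at the mean of each time, a dashed line at the 0 h mean and marker shapes for replicate numbers as in the plot of levels by library. TNFRSF10D over TNFRSF10A is lowest at 3 h (-0.80 to -0.67) and highest at 24 h (-0.18 to 0.01), and TNFRSF11B over TNFRSF10B is lowest at 24 h (-5.19 to -5.04).

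The counts are estimates that can divide a fragment between genes. For TNFRSF10B and TNFRSF11B all 17 counts were whole numbers (within 1e-06), for TNFRSF10D 1 was not, for TNFRSF10C 13 were not and for TNFRSF10A 16 were not. TNFRSF10A shares 224 of its 2951 exon bases with the antisense gene TNFRSF10A-AS1 (2.0 to 16.4 counts per library) and 266 with the opposite-strand transcript AC100861.1 (27.1 to 67 counts), against 338 to 689 counts of its own. TNFRSF10C shares 485 of its 1868 exon bases with AC107959.4, a long non-coding RNA on the same strand whose counts (3.2 to 15.5) were as many as its own (4 to 18), so its level is the least certain of the 5. TNFRSF10B shares 67 of 5158 exon bases with RHOBTB2 on the opposite strand, at 163 to 335 counts against 1820 to 3090. The libraries kept strand information, but whether the counting used it is not given in the sources used here.

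The cells also transcribed the ligand. TNFSF10, which encodes TRAIL, was at 66.3 ± 10.3 CPM (SD, n = 3) at 0 h and 107 ± 12.6 (n = 3) at 24 h, a log2 fold change of 0.69 (SE 0.109, adjusted p = 1.94e-04), and it was not called at the earlier times. TNFSF11, which encodes RANKL, had 0 counts in every library, and its receptor TNFRSF11A was not called against 0 h at any time.

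Of 8 genes for the death-inducing complex below the receptors, none was called at 1 h or 12 h, when 0.312% and 12.4% of all genes were. At 3 h 2 were higher and 1 was lower, 6 h gave 3 that were higher and 1 that was lower, and at 24 h 1 was higher, with list medians of -0.08, -0.08 and 0.07 (all genes tested had medians of -0.0041, -0.022 and -0.0017). At 3 h 9.04% of all genes were called higher and 8.71% lower, with 16.9% higher and 13.2% lower at 6 h, then 18.0% higher and 17.1% lower by 24 h, so the 1 of 8 at 24 h was no more than that background. CFLAR, which encodes the caspase-8 inhibitor cFLIP, rose by 0.34 at 3 h (adjusted p = 4.10e-04), 0.49 at 6 h (adjusted p = 6.26e-06) and 0.31 at 24 h (adjusted p = 4.79e-04). TRAF2, an adaptor that links receptors to NF-kB and JNK signalling, rose by 0.36 at 3 h and 0.44 at 6 h, and the kinase RIPK1 rose by 0.25 at 6 h. FADD, the adaptor that binds the death domain, fell by 0.39 at 3 h (adjusted p = 0.003), and BID, a caspase-8 substrate, fell by 0.24 at 6 h. CASP8, CASP10 and TRADD were not called against 0 h at any time.

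Of the other death receptors of the family, 5 of 6 were tested (EDAR was not). At 3 h TNFRSF1A, the main TNF receptor, fell by 0.45 (adjusted p = 1.08e-05), the opposite direction to TNFRSF10A and TNFRSF10B at that time. It was the only 1 of the 5 called then, when 9.04% of all genes were called higher and 8.71% lower. At 6 h TNFRSF21 (DR6) rose by 0.21 and the neurotrophin receptor NGFR fell by 0.82. That was 1 of 5 in each direction, near the 16.9% of all genes called higher and 13.2% lower. At 24 h NGFR (1.15, adjusted p = 2.12e-04) and TNFRSF1A (0.14, adjusted p = 0.0404) were higher and TNFRSF25 (DR3) was lower (-0.56, adjusted p = 0.0473). So 2 of 5 were higher and 1 of 5 lower, where 18.0% of all genes were called higher and 17.1% lower. Levels of NGFR (0.929 to 5.07 CPM) and TNFRSF25 (1.58 to 3.53 CPM) were low. FAS was not called against 0 h at any time; its values were -0.43 at 3 h (adjusted p = 0.078) and 0.39 at 6 h (adjusted p = 0.0547).

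Among 9 genes that glycosylate, ubiquitinate, internalise or sort these receptors, none was called at 1 h or 3 h, while 6 h gave 2 higher and 1 lower. Of all genes, 0.312% were called at 1 h, and 9.04% were called higher and 8.71% lower at 3 h. At 12 h 1 of the 9 was lower, near the 12.4% of all genes called then in either direction. By 24 h 3 stood higher and 1 lower. CLTC, the clathrin heavy chain, rose by 0.26 at 6 h and 0.36 at 24 h, and SRP72, a subunit of the signal recognition particle, rose by 0.35 and 0.30 at those times. MARCH8, a membrane ubiquitin ligase, rose by 0.55 at 24 h (adjusted p = 8.53e-04). GALNT14, an enzyme that starts O-glycosylation of death receptors, fell by 0.57 at 12 h and 0.62 at 24 h (adjusted p = 0.0108). The list's medians at 6 h and 24 h were 0.08 and 0.13, and its counts at 6 h stood near the background of 16.9% of all genes called higher and 13.2% lower (18.0% and 17.1% at 24 h).

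Of 10 transcription factors known to act on TNFRSF10A or TNFRSF10B, all tested, 1, 2, 5, 1 and 2 were called higher at 1, 3, 6, 12 and 24 h and 0, 0, 1, 0 and 3 lower. The medians of these 10 at 6 h and 24 h were 0.17 and 0.04. Of all genes, 0.312% were called at 1 h and 12.4% at 12 h, in either direction, and the shares called higher were 9.04%, 16.9% and 18.0% at 3, 6 and 24 h, against 8.71%, 13.2% and 17.1% lower, so that 2 of 10 higher at 24 h was close to the background. NFKB1, a subunit of NF-kB, rose by 0.60 at 3 h, 1.04 at 6 h (adjusted p = 3.74e-07) and 0.61 at 24 h, and RELA rose by 0.35 at 6 h. JUN rose by 0.39 at 1 h (adjusted p = 0.0327) and 0.74 at 3 h, and FOXO3 rose by 0.48 at 6 h. DDIT3 (CHOP), a stress factor known to act on TNFRSF10B, fell by 0.49 at 6 h and 0.67 at 24 h (adjusted p = 2.23e-04). ATF4, the factor upstream of it, fell by 0.57 at 24 h. Whether any of these factors acted on the receptor genes in these cells was not tested.

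The genes whose log2 levels over the 17 libraries were most like each receptor gene were searched among 11369 abundant genes, as a description with no test. For TNFRSF10A they were TRAF3 (r = 0.969), NFKB1 (r = 0.953) and PLAGL2 (r = 0.948). For TNFRSF10B they were TNIP1 (r = 0.956), the adhesion molecule ICAM1 (r = 0.941) and PTX3 (r = 0.931). For TNFRSF10D they were SAMHD1 (r = 0.970), LRP10 (r = 0.955) and HDGF (r = 0.954), and for TNFRSF11B they were ANKLE2 (r = 0.917), the splicing factor SRSF2 (r = 0.911) and the kinase SGK1 (r = 0.910). The best matches of TNFRSF10C were weaker, led by OSBPL2 (r = 0.835). Over the 6 time means in place of the 17 libraries, none of these 15 genes was among the 3 most alike of its receptor gene, so the names depend on how likeness is counted.

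Within 500 kb of the receptor cluster 14 other protein-coding genes were tested. None was called against 0 h at 1 h or 12 h, when 0.312% and 12.4% of all genes were. By contrast, 3 h gave 4 higher and 1 lower, 6 h gave 3 higher and 1 lower, and 24 h gave 1 of each. The shares of all genes called higher and lower at these times were 9.04% and 8.71%, 16.9% and 13.2%, and 18.0% and 17.1%, so the neighbours' counts were near that background at 6 h and below it at 24 h. Their median log2 fold changes at 3, 6 and 24 h were 0.08, 0.09 and -0.11. CHMP7, 18.5 kb from TNFRSF10A and a component of the membrane-remodelling machinery, was the 1 gene called higher at both 6 h (0.31, adjusted p = 0.00281) and 24 h (0.30, adjusted p = 0.00326). RHOBTB2, which overlaps the end of TNFRSF10B, was not called against 0 h at any time (0.13 at 6 h and 0.03 at 24 h). Around TNFRSF11B 3 neighbours were tested. At 24 h, when 18.0% of all genes were called higher, MAL2 (0.98) and SAMD12 (0.35) were higher while TNFRSF11B was lower. The remaining neighbour, CCN3, was called lower at 3 h (-0.57) and 6 h (-0.38) and was not called at 24 h (0.31, adjusted p = 0.0526).

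**Figure D5:**
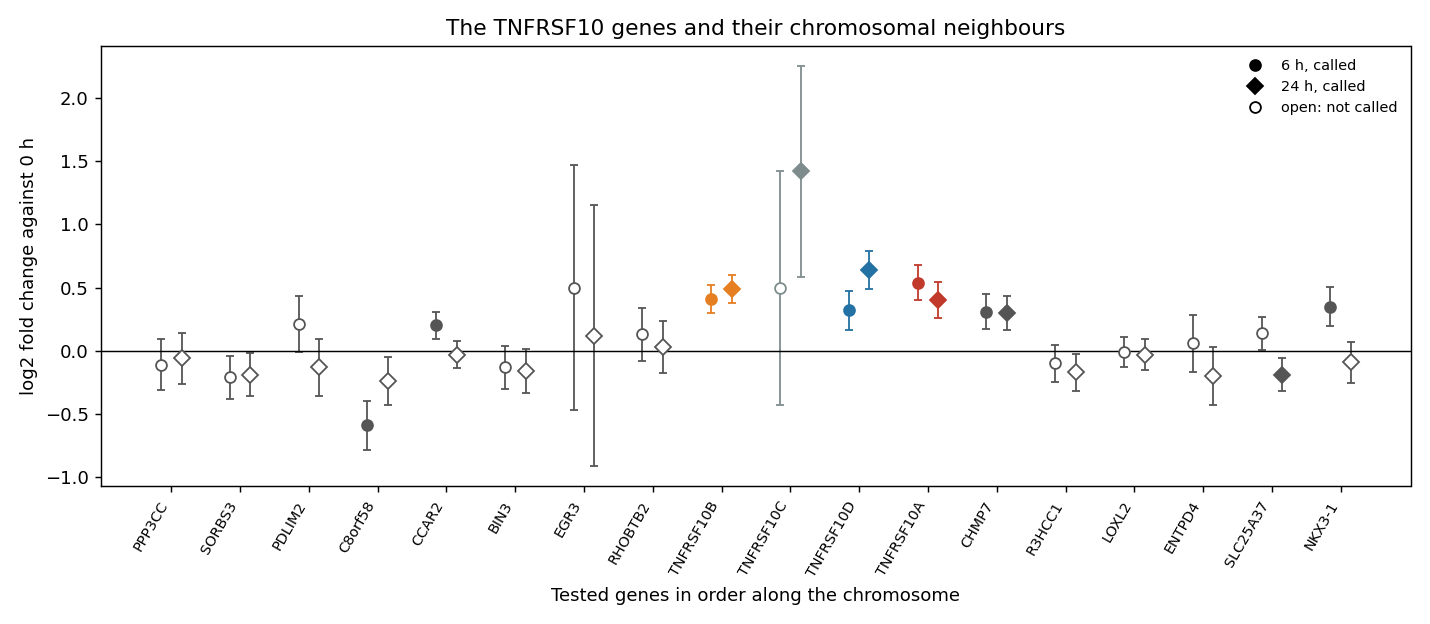
Log2 fold change against 0 h at 6 h and 24 h for the genes of the receptor cluster and its tested protein-coding neighbours within 500 kb, in their order along the chromosome, with bars for the 95% interval, circles for 6 h, diamonds for 24 h and open symbols for values not called. The receptor genes TNFRSF10A, TNFRSF10B and TNFRSF10D are above 0 at both times (0.32 to 0.64), RHOBTB2 is at 0.13 and 0.03, and TNFRSF10C and EGR3 have the widest intervals.

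Markers of other cell types were checked because CD68 and PECAM1, the only 2 of 7 such genes with enough counts to be tested, were both higher at 24 h (0.23, adjusted p = 0.0058, and 1.17, adjusted p = 0.00258). The summed level of the 7 markers was 76.5 to 87.6 CPM at 0 h, 58.8 to 64.9 CPM at 3 h and 95.7 to 102 CPM at 24 h, nearly all of it CD68, which many cell types express in their lysosomes. The defining leukocyte marker PTPRC stayed at or below 0.334 CPM, CD3E was at 0 in every library, and the endothelial markers VWF and CDH5 reached at most 0.333 and 0.137 CPM. The part of CD68, PECAM1 and the mitochondrial percent in the receptor results was not tested.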

How the data were processed

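Poly(A) RNA libraries (TruSeq Stranded mRNA, paired-end) of 17 samples in 6 time groups were used. The deposited table holds expected counts per gene, which the authors estimated from aligned reads; 10.8% of its values are not whole. The submitters' processing notes name cutadapt 1.18, STAR 2.7.0f and the build hg38, and the table's own name gives RSEM; the annotation release and strand setting are not given in the sources used here. By gene ID, 58597 of 58870 entries matched GENCODE 29, used for positions, lengths and GC content.

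Expected counts were rounded, filtered with filterByExpr (count minimum 10) and scaled by TMM. Differences were tested with edgeR 4.0.16 in R 4.3.3 (robust quasi-likelihood F-test, 1 mean per time, all libraries in 1 fit; Benjamini-Hochberg over 15365 genes, called at adjusted p below 0.05). The standard error of a log2 fold change was the size of that change, estimated anew without added prior counts, over the square root of F. The common biological coefficient of variation was 7.06%. Ratios used exact two-sided permutation tests. The script was tested on simulated data. Alternatives were other scalings (RLE, upper quartile, library size), filters, DESeq2 1.42.0, limma-voom (limma 3.58.1), length and GC offsets, a replicate block, averaged or left-out libraries, and fits of each pair of times.

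Named genes are the 5 receptor genes, members of the pathway lists, the 3 most alike per receptor gene (average log2 CPM of at least 2), overlapping genes and neighbours. A gene of the transcription factor list and a list of target genes are not reported here. The receptor genes and the lists were chosen with earlier results of these data known. Depth sets the precision: TNFRSF10C had 4 to 18 counts per library and TNFRSF11B 38 to 93.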

Additional observations from a re-analysis of the deposited data

Results flagged for a closer look

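For 4 of the 5 receptor genes the level differed between 2 consecutive times with TRAIL, and that difference was itself tested in the fit over all libraries (edgeR's quasi-likelihood test, Benjamini-Hochberg adjusted p). TNFRSF10A moved at each step after 1 h: 0.29 from 1 h to 3 h, 0.28 from 3 h to 6 h, -0.41 from 6 h to 12 h and 0.27 from 12 h to 24 h on the log2 scale; the first and last of these calls were lost in several alternatives. TNFRSF10B moved by 0.21, -0.25 and 0.32 over the last 3 of these steps. TNFRSF10D moved by 0.50 from 3 h to 6 h and by 0.50 from 12 h to 24 h. TNFRSF11B moved by -0.64 from 6 h to 12 h. Groups of 2 or 3 libraries are too small to look for a library that stands apart.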

How the results depend on the processing

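The number of libraries and the depth of TNFRSF10C (4 to 18 counts) limit what can be said. The calls of TNFRSF10A and TNFRSF10B at 6 h and 24 h and of TNFRSF10D at 24 h were kept in every alternative run. The calls at 3 h were not. With library-size scaling the log2 fold change at 3 h was 0.19 (adjusted p = 0.0908) for TNFRSF10A and 0.13 (adjusted p = 0.149) for TNFRSF10B, while TNFRSF10D, at -0.25 (adjusted p = 0.0489), was then called; without a filter the death receptors stood at 0.24 (adjusted p = 0.0891) and 0.18 (adjusted p = 0.0937). The number of receptor genes called at 3 h was 1 with library-size scaling and 0 without a filter. At 12 h TNFRSF10B was called with library-size scaling (0.20, adjusted p = 0.045), DESeq2 (0.17, adjusted p = 0.0348), length and GC offsets (0.14, adjusted p = 0.0373) and the replicate block with those offsets (0.14, adjusted p = 0.0247), and TNFRSF11B with the offsets (-0.52, adjusted p = 0.0357) and with block and offsets (-0.52, adjusted p = 0.0458). The number called at 12 h was then 1, 1, 2 and 2. Requiring 10 counts on average left TNFRSF10C out, so that 4 genes were called at 24 h. The cause of these shifts was not tested.

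Whether replicate numbers pair the libraries could not be decided, because the correlations of same-numbered and differently numbered libraries spread widely and overlapped. Deviations of same-numbered libraries correlated with a median r of 0.0492 over 40 pairs (-0.471 to 0.522), 19 of them over 0.1. For differently numbered libraries the median was -0.0138 over 80 pairs (-0.414 to 0.451), 30 of them over 0.1. The replicate block alone changed no call against 0 h: at 24 h the values were 0.40 for TNFRSF10A (adjusted p = 5.19e-04) and 0.49 for TNFRSF10B, and 5 receptor genes were called. It ended the call of TNFRSF10A from 1 h to 3 h (0.28, adjusted p = 0.061). With block and offsets TNFRSF10B was called from 1 h to 3 h (0.19, adjusted p = 0.0147) and TNFRSF10D from 6 h to 12 h (-0.18, adjusted p = 0.0373). Small values changed sign: TNFRSF10B at 1 h was -0.03 with library-size scaling, TNFRSF10C at 1 h was -0.05 with the block and -0.07 with block and offsets, and TNFRSF10C from 3 h to 6 h was -0.01 with the close pairs averaged. With 0 h set against all later times, the log2 ratio of decoy over death receptors differed by -0.09 (exact permutation test, adjusted over 5 ratios p = 0.645). The difference was -0.10 for TNFRSF10D over TNFRSF10B, -0.10 for TNFRSF10D over TNFRSF10A and 0.0029 for TNFRSF10A over TNFRSF10B. These values pool times that lay on different sides of 0 h.

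Leaving out each library in turn gave, against 0 h, -0.09 to 0.03 at 1 h and 0.24 to 0.30 at 3 h for TNFRSF10A; -0.01 to 0.07, 0.17 to 0.25 and 0.11 to 0.21 at 1, 3 and 12 h for TNFRSF10B; and -0.07 to 0.21 at 1 h and 1.17 to 1.69 at 24 h for TNFRSF10C. It gave 0.24 to 0.36 at 6 h for TNFRSF10D, and -0.59 to -0.30 at 12 h and -0.69 to -0.39 at 24 h for TNFRSF11B. TNFRSF10C from 3 h to 6 h ranged from -0.08 to 0.43 and TNFRSF10D from 1 h to 3 h from -0.08 to 0.05. The receptor genes called numbered 0 to 2 at 3 h and 0 to 2 at 12 h. The ratio differences ranged from -0.02 to 0.05 for TNFRSF10D over TNFRSF10B, -0.02 to 0.06 for TNFRSF10D over TNFRSF10A and -0.06 to 0.05 for TNFRSF10A over TNFRSF10B. Where 1 library at 1 h was left, its spread was taken to be that of the other groups.

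Counts over all genes moved by more than 1.5 times in some alternatives. At 1 h 40 genes were called higher (132 without a filter) and 8 lower (63 without a filter, 16 with DESeq2, 13 with offsets, 5 with only the times compared, 5 with close pairs averaged). At 3 h 1389 were higher and 1338 lower, against 913 and 2153 with library-size scaling, and 2010 lower with block and offsets. At 6 h 2602 were higher and 2025 lower, against 1439 and 1093 with close pairs averaged and 3047 lower with upper-quartile scaling. At 24 h 2763 were higher, against 1709 with close pairs averaged. With single libraries left out, the genes called higher and lower numbered 23 to 41 and 3 to 8 at 1 h, 746 to 1565 and 666 to 1464 at 3 h, 1635 to 2804 and 1028 to 2212 at 6 h, 326 to 1043 and 398 to 1155 at 12 h (916 and 995 with all libraries), and 1751 to 3002 and 1693 to 2796 at 24 h. The lowest counts came without replicate 3 at 0 h for 3 h, replicate 3 at 6 h for 6 h, replicate 2 at 12 h for 12 h and replicate 1 at 0 h for 24 h, so the background shares move with single libraries.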
